A study of Mus musculus with 4 samples.

Results

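Folate cycle and one-carbon enzymes carry single carbon units on tetrahydrofolate and pass them to purines, thymidylate and methionine. The 8 genes described here, Mthfd1, Mthfd1l, Mthfd2, Shmt1, Shmt2, Tyms, Mtr and Aldh1l2, were chosen by name, from the enzymes of this cycle, and every gene probe of the array whose accession maps to one of them was taken. All 8 were found among 22911 genes with a symbol on the array, with 16 probes. On every array, 15 of the 16 probes stood well above background, and the second probe of Mthfd1l, above background on 0 arrays, was left out.

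Serine is the main donor of these carbon units. Shmt enzymes take a carbon from serine and leave glycine, in mitochondria (Shmt2) and in the cytosol (Shmt1). The mitochondrial arm (Mthfd2, then Mthfd1l) turns that carbon into formate, which leaves the mitochondrion and is picked up again by Mthfd1 in the cytosol. MOTS-c, a short peptide encoded in the mitochondrial 12S rRNA gene, has been linked in other cell types to the folate cycle and to purine synthesis upstream of AMPK, which is why these transcripts are of interest in cells given the peptide.

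The arrays carried RNA of dispersed pancreatic islet cells from C57BL/6 littermates, labeled as 60-week-old males, that were treated outside the animal for 24 h. 2 samples received the scrambled peptide (replicates 1 and 2) and 2 received MOTS-c (replicates 2 and 3, as their titles number them), each at 10 μM, and there was no untreated group. By the methods, the cells were hand-picked islets dispersed into single cells. Each array was therefore taken as a mixture of islet cell types. In a mixture, a smaller number of cells of a type cannot be told apart from less RNA per cell. The labels name 4 littermates for the 4 samples and do not say which animal gave which sample, so a p-value speaks of these samples only. In the limma fit, the spread of each probe between the samples was moderated by that of all probes.

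Between 61.6% and 65.0% of gene spots were well above background on an array. The islet hormone transcripts Ins1, Ins2, Iapp, Gcg and Sst were above background on all 4 arrays, 0 of 3 duct markers passed the background filter, and 1 of 3 endothelial, 1 of 4 mesenchymal, 1 of 4 immune and 2 of 4 acinar markers did. Of the markers, Slc2a2, the beta cell glucose transporter, was at log2 5.23 and 5.26 with the scrambled peptide and 3.81 and 4.02 with MOTS-c, and was above background on 3 of the arrays (adjusted p 0.474). The part of cell makeup in the results below was not tested. The 7 probes of 4 Y-linked genes were not above background on any array and the Xist probe was above background on all 4, against the label of male mice, and this holds for both groups.

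Across the whole array, the limma fit called 0 of 35087 probes at an adjusted p under 0.05 (0.00%), with a smallest adjusted p of 0.474, and 2755 probes (7.85%) had an unadjusted p under 0.05. After adjustment, 1 probe (H2ac12, a histone gene) passed the methods' t-test. None of the 8 enzymes passed the test. Shmt2 was the only member with a probe at an unadjusted p under 0.05, and its difference was to the lower side in MOTS-c, where 4.82% of all probes lay. The other 14 member probes differed between the groups by −0.27 to 0.16 on the log2 scale, which is within the spread between arrays of the same group for most of them. The group difference was smaller than both within-group gaps in 9 of 15 probes, and larger than both in 2, the brighter probe of Mthfd1 and the brighter probe of Shmt2.

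**Figure D1:**
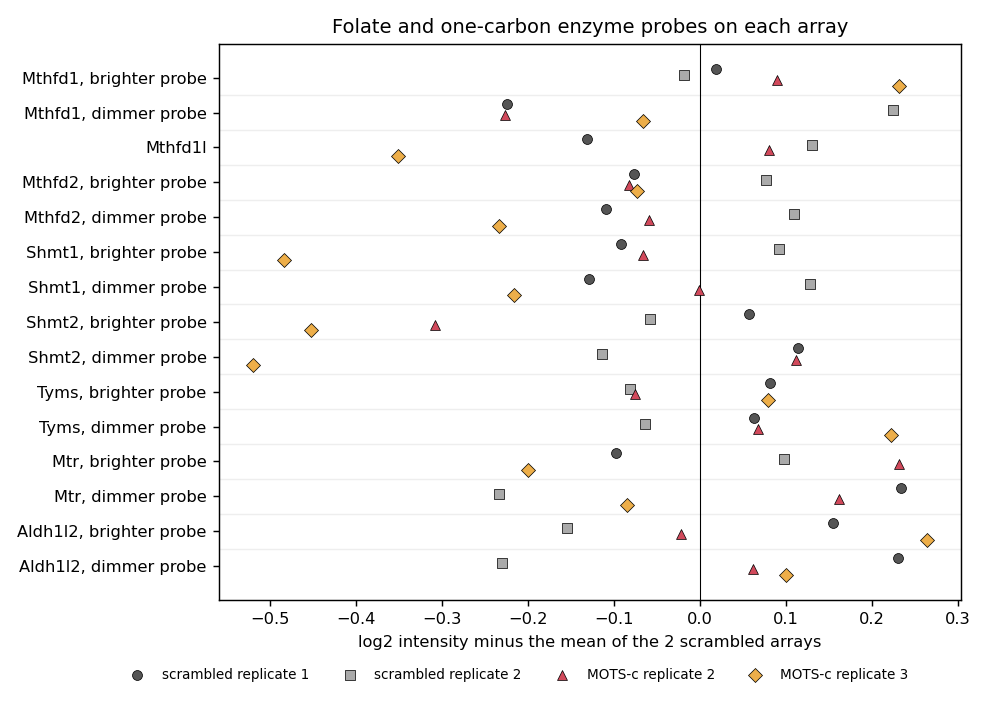
Each row is a probe of a folate or one-carbon enzyme, and the x axis gives its quantile-normalized log2 intensity on each of the 4 arrays minus the mean of the 2 scrambled arrays. The brighter Shmt2 probe has both MOTS-c arrays below both scrambled arrays, while in 12 of the 15 rows the symbols of the groups are interleaved.

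Shmt2, the mitochondrial serine hydroxymethyltransferase, is known to take a carbon from serine inside the mitochondrion. Its brighter probe (A_51_P313761) read log2 12.64 and 12.53 with the scrambled peptide and 12.28 and 12.13 with MOTS-c. The groups did not overlap, and each MOTS-c value was under each scrambled value. The difference was −0.38 ± 0.13 on the log2 scale (SE of the limma fit, n = 2 per group), which is 23.2% lower. Its 95% interval was −0.73 to −0.033, with a limma p of 0.0377 before and 0.600 after adjustment over all probes. The unadjusted p ran from 0.00918 to 0.177 over 12 other settings. A difference of this size or larger was found in 14.1% of all probes. The dimmer Shmt2 probe (A_65_P12363) read 5.70 and 5.47 with the scrambled peptide against 5.70 and 5.06 with MOTS-c. There the groups overlapped, since MOTS-c replicate 2 matched scrambled replicate 1, and its difference of −0.20 ± 0.25 was carried by MOTS-c replicate 3 alone: it was 0.11 without that array. The mean over both Shmt2 probes gave −0.29 with an unadjusted p of 0.177.

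Shmt1, the cytosolic enzyme of the same reaction, had its lowest value on MOTS-c replicate 3. Its brighter probe (A_52_P673499) read 9.02 and 9.20 with the scrambled peptide and 9.04 and 8.62 with MOTS-c, a difference of −0.27 ± 0.19 (limma p 0.212, adjusted 0.783). MOTS-c replicate 2 lay between the 2 scrambled arrays, so the groups overlapped. The dimmer probe (A_55_P2186584) read 6.70 and 6.95 against 6.82 and 6.61 and differed by −0.11 ± 0.16. Both enzymes that draw carbon from serine thus had negative differences in each of their probes, but only the brighter Shmt2 probe had groups apart.

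Mthfd2, the mitochondrial dehydrogenase and cyclohydrolase that carries the carbon on toward formate, hardly differed. Its brighter probe (A_55_P2745905) read 12.50 and 12.65 with the scrambled peptide and 12.49 and 12.50 with MOTS-c. Scrambled replicate 2 stood above the other arrays, whose values lay close together. The difference was −0.078 ± 0.13 (95% interval −0.41 to 0.26; adjusted p 0.921). Its dimmer probe (A_52_P184149) read 12.19 and 12.41 against 12.24 and 12.07, a difference of −0.15 ± 0.15 with overlapping groups.

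Mthfd1l, the mitochondrial enzyme that releases formate, was followed by 1 probe (A_55_P2000280). It read 10.44 and 10.70 with the scrambled peptide and 10.65 and 10.22 with MOTS-c. The MOTS-c arrays lay 0.43 apart, more than the group difference of −0.14 ± 0.20 (adjusted p 0.909), and the sign turned, to 0.080, without MOTS-c replicate 3.

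Aldh1l2, the mitochondrial enzyme that oxidizes formyl-tetrahydrofolate to carbon dioxide and yields NADPH, had slightly higher means with MOTS-c in both probes. The brighter probe (A_55_P2809133) read 11.01 and 10.70 with the scrambled peptide and 10.83 and 11.12 with MOTS-c, a difference of 0.12 ± 0.18. The dimmer probe (A_52_P498193) read 10.44 and 9.98 against 10.27 and 10.31, a difference of 0.081 ± 0.19. In the dimmer probe both MOTS-c values lay between the scrambled values, and without scrambled replicate 2 its difference was −0.15. Of the 4 mitochondrial members, 3 had a brighter probe lower in MOTS-c, with a median difference of −0.11.

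Mthfd1, the cytosolic enzyme that takes up formate and interconverts the folate forms, gave opposite signs in its 2 probes. The brighter probe (A_55_P2909818) read 14.95 and 14.91 with the scrambled peptide and 15.02 and 15.16 with MOTS-c. The groups did not overlap, with both MOTS-c values on the higher side and a difference of 0.16 ± 0.13 (95% interval −0.17 to 0.49; limma p 0.265, adjusted 0.811). With the normexp background correction it was 0.27 (unadjusted p 0.0431). The dimmer probe (A_55_P2740152) read 11.27 and 11.72 against 11.27 and 11.43, a difference of −0.15 ± 0.20, and scrambled replicate 2 alone stood high. The mean over both probes differed by 0.0071. Mthfd1 was the exception among 7 genes with 2 probes: in the other 6 both probes had the same sign.

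Tyms, thymidylate synthase, uses methylene-tetrahydrofolate to make the thymidine nucleotide of DNA. Its brighter probe (A_51_P398366) read 15.41 and 15.24 with the scrambled peptide and 15.25 and 15.40 with MOTS-c, so that each group held the same pair of levels and the difference was 0.0018 ± 0.14 (95% interval −0.36 to 0.37). The dimmer probe (A_55_P2739667) read 14.47 and 14.34 against 14.48 and 14.63. Its groups did not overlap, with MOTS-c replicate 2 only just above scrambled replicate 1, and the difference was 0.14 ± 0.13 (adjusted p 0.837).

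Mtr, methionine synthase, passes the methyl group of methyl-tetrahydrofolate to homocysteine and needs vitamin B12. Its brighter probe (A_55_P2152962) read 9.86 and 10.05 with the scrambled peptide and 10.18 and 9.75 with MOTS-c, and the scrambled values lay between the MOTS-c values. The difference was 0.016 ± 0.19 (95% interval −0.50 to 0.53). The dimmer probe (A_55_P2932266) read 6.04 and 5.58 against 5.97 and 5.73 and differed by 0.038 ± 0.21. Of the 4 cytosolic members (Mthfd1, Shmt1, Tyms and Mtr), only Shmt1 had a brighter probe lower in MOTS-c, and their median difference was 0.0088.

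Counted together, 7 member probes had higher and 8 had lower means with MOTS-c, with a median of −0.078 against 0.014 over all probes. With the brightest probe per gene, 4 members were higher and 4 lower, and the median was −0.038 against −0.0018 over 15470 genes. Groups did not overlap in 3 of 15 member probes, while this held for 38.0% of all probes. 1 of 15 had an unadjusted p under 0.05, close to the 7.85% of all probes. The 95% interval lay inside a doubling or halving for all 15 probes that were fitted, so changes of that size were outside the intervals. For 14 of the 15 the interval also held 0. An exact permutation test of 2 against 2 arrays cannot go below p = 0.333.

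**Figure D2:**
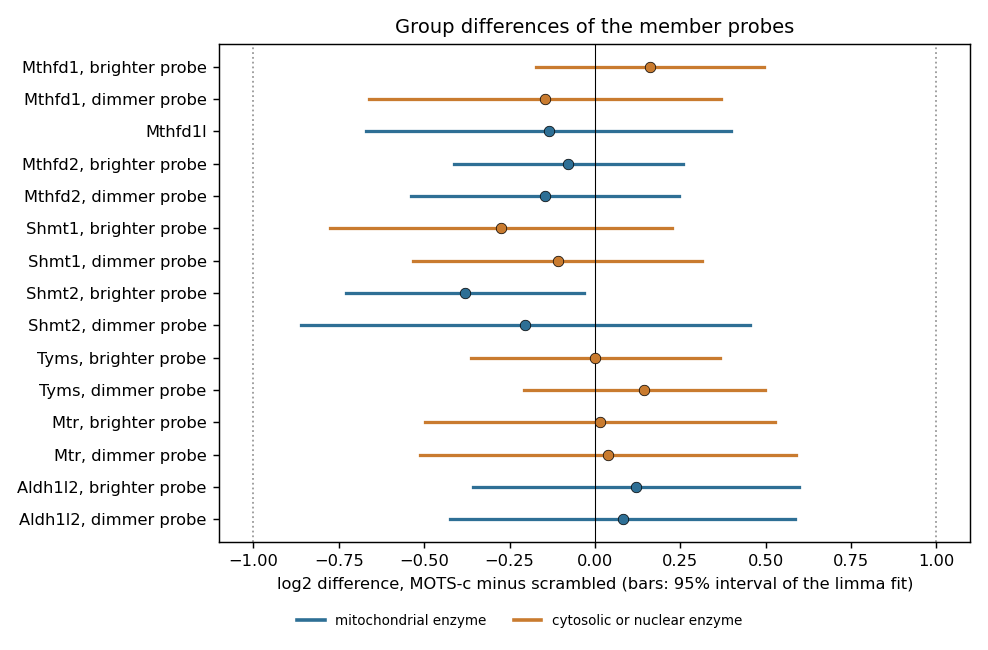
Points are the log2 differences of MOTS-c minus scrambled for the 15 member probes and bars are 95% intervals of the limma fit, with mitochondrial enzymes in blue, cytosolic or nuclear enzymes in orange and dotted lines at a doubling and a halving. Only the bar of the brighter Shmt2 probe lies wholly on one side of 0, from −0.73 to −0.033.

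The spread among the members did not follow the groups. MOTS-c replicate 3 was the lowest array in 7 of the 15 member probes and scrambled replicate 2 in 6, while scrambled replicate 2 was also the highest in 6. The gap between the 2 scrambled arrays had a median of 0.22 over the member probes, and the gap between the 2 MOTS-c arrays a median of 0.18. Scrambled replicate 1 and MOTS-c replicate 2, which belong to different groups, were the closest pair over the members, with a median absolute difference of 0.072.

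Genes around these enzymes were followed through 7 lists with 72 genes, of which 64 had a probe that passed the background filter, each through its brightest probe. 4 of the 64 had an unadjusted p under 0.05, against 8.61% of all genes, and all 4 were lower in MOTS-c, where 5.79% of all genes lay. These were Gldc, Cbs, Gdf15 and Nupr1. None passed the adjusted test.

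Among 9 other folate enzymes, 7 were measured (Mthfd2l and Ftcd did not pass the filter) and none had an unadjusted p under 0.05. Their differences ran from −0.23 in Aldh1l1, a cytosolic relative of Aldh1l2, to 0.10 in Ggh, which trims the glutamate tail of folates. The 4 measured folate carriers ran from −0.33 in Folr1, a folate receptor, to 0.27 in Slc25a32, which carries folate into mitochondria. Slc25a32 read 9.56 and 9.56 with the scrambled peptide and 9.92 and 9.73 with MOTS-c, with an adjusted p of 0.708. By brightest probe it was the only carrier whose groups did not overlap, while groups did not overlap in 42.5% of all genes. The dimmer Slc25a32 probe differed by −0.019 with overlapping groups. The dimmer Folr1 probe, at −0.33, was lower without overlap.

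In the list of serine and glycine supply, 8 of 10 genes were measured, and 6 of these had groups that did not overlap, 4 lower and 2 higher in MOTS-c, beside 42.5% of all genes without overlap and 22.7% without overlap and lower. Gldc, the glycine decarboxylase that feeds a carbon from glycine into mitochondrial folate, read 10.06 and 10.17 with the scrambled peptide and 9.58 and 9.43 with MOTS-c. Its difference was −0.61 ± 0.13 (95% interval −0.95 to −0.26; limma p 0.00686, adjusted 0.500). The measured partners in the glycine cleavage system had the opposite sign. Dld, its lipoamide dehydrogenase, was at 0.24 ± 0.15. Gcsh, the carrier protein of that system and the highest gene of the list, read 13.22 and 13.36 against 13.63 and 13.47, a difference of 0.26 ± 0.14 (adjusted p 0.722).

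In the methionine cycle and transsulfuration, 12 of 14 genes were measured, 7 higher and 5 lower. Cbs, cystathionine beta-synthase, joins homocysteine to serine and so takes homocysteine away from Mtr. It read 13.54 and 13.51 with the scrambled peptide and 12.76 and 12.86 with MOTS-c. The difference of −0.72 ± 0.12 was many times the gap within either group (95% interval −1.04 to −0.40; limma p 0.00255, adjusted 0.474). Ahcyl2, a relative of adenosylhomocysteine hydrolase, was the highest of the list at 0.25 ± 0.13 (adjusted p 0.711).

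Of 6 genes of nucleotide synthesis that use or follow folate carbon, 5 were measured, from −0.15 in Gart, a purine enzyme that uses formyl-tetrahydrofolate, to 0.10 in Tk2, the mitochondrial thymidine kinase, and none had an unadjusted p under 0.05. All 15 DNA replication genes, with which Tyms is known to move, were measured. Their median was −0.032, with 7 higher and 8 lower and none at an unadjusted p under 0.05. They ran from −0.40 ± 0.30 in Mki67 to 0.42 ± 0.24 in Top2a, both genes of dividing cells. Both were bright, with scrambled means of log2 14.32 in Mki67 and 13.96 in Top2a. What share of the cells was dividing was not tested. Groups did not overlap in 11 of these 15 genes, 5 higher and 6 lower in MOTS-c. Over all genes, 42.5% had no overlap and 22.7% had no overlap and were lower.

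**Figure D3:**
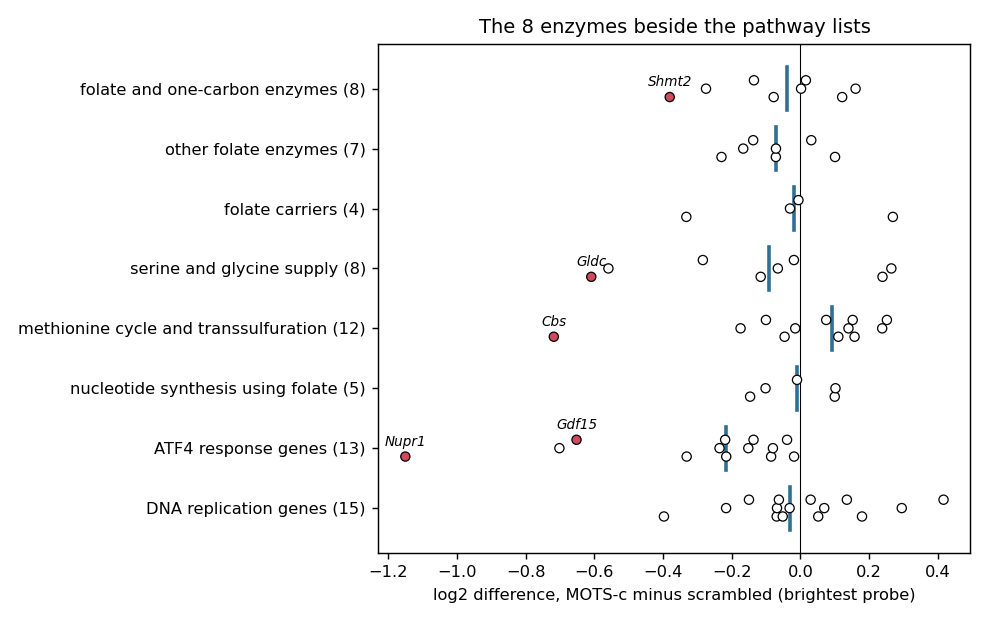
Each circle is a gene, placed by the log2 difference of MOTS-c minus scrambled of its brightest probe, for the 8 enzymes and 7 pathway lists with the number of measured genes in parentheses. Blue lines are medians and red circles are genes with an unadjusted limma p under 0.05. All 13 ATF4 response genes lie left of 0, where 50.4% of all genes lay. The lists were chosen with earlier results of these data known.

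ATF4, a transcription factor of the amino acid and mitochondrial stress response, is known to drive Mthfd2, Shmt2 and Aldh1l2 together with the serine synthesis genes. All 13 ATF4 response genes were measured and, by brightest probe, all 13 had negative differences, beside 50.4% of all genes. The median was −0.22. In 10 of the 13 the groups did not overlap, with MOTS-c lower, which was found in 22.7% of all genes. Fgf21, among these, was dim, at 5.30 and 4.23 with the scrambled peptide against 4.03 and 4.09. The dimmer probes of Atf4 (−0.037) and Atf5 (−0.21) were also negative, while those of Asns (0.067) and Slc7a11 (0.026) were positive. The count of lower genes was 12 with normexp, with the mean over a gene's probes and without scrambled replicate 1, and 10 without MOTS-c replicate 3. The count without overlap was 7 with the mean over a gene's probes and 9 with normexp, with the 75th percentile shift and with only probes above background on all 4 arrays. 2 of the 13 had an unadjusted limma p under 0.05, both lower, beside 8.61% of all genes and 5.79% on the lower side. None passed the adjusted test, and genes that share a regulator are not independent of each other. The list was chosen with earlier results of these data known, so its counts are no independent evidence. It leaves out Mthfd2, Shmt2 and Aldh1l2, which are counted as members.

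Nupr1, a small stress-induced nuclear protein, had the lowest difference of all lists. It read 11.04 and 10.67 with the scrambled peptide and 9.83 and 9.58 with MOTS-c, a difference of −1.15 ± 0.19 (95% interval −1.64 to −0.66; limma p 0.00213, adjusted 0.474). Gdf15, a secreted stress hormone, read 7.75 and 8.12 against 7.41 and 7.17, a difference of −0.65 ± 0.19 (limma p 0.0197, adjusted 0.544). The 2 scrambled arrays differed from each other by 0.36 in Nupr1 and by 0.37 in Gdf15. In Nupr1 the groups lay further apart than the arrays within either group. The unadjusted p of Gdf15 was 0.0985 with the methods' t-test. Leaving out 1 array moved the Gdf15 difference between −0.83 and −0.47. Atf5 was the highest of the list at −0.019 ± 0.14.

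The 3 members known as ATF4 targets did not share one sign. Shmt2 was at −0.38 and Mthfd2 at −0.078, while Aldh1l2 was at 0.12. Asns, asparagine synthetase and a classic ATF4 target, read 16.31 and 16.31 with the scrambled peptide and 16.25 and 16.29 with MOTS-c. Its difference of −0.039 ± 0.12 was small beside those of Nupr1 and Gdf15.

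The 3 pathway genes whose profile over the 4 arrays was nearest to that of Shmt2, by the root mean square difference of centered log2 values among 64 genes, were Phgdh (0.057), Atf4 (0.083) and Chac1 (0.091). Phgdh, which starts serine synthesis, read 12.78 and 12.61 with the scrambled peptide and 12.45 and 12.37 with MOTS-c. Its difference was −0.28 ± 0.13 (adjusted p 0.695) with the groups apart. The brighter Atf4 probe read 17.20 and 17.05 against 16.97 and 16.84, and Chac1, a glutathione-degrading enzyme, 14.34 and 14.22 against 14.04 and 14.05. The dimmer Atf4 probe read 12.80 and 12.71 against 12.80 and 12.63. Its difference was −0.037 ± 0.13, with overlapping groups. Since these genes were picked for likeness to Shmt2 on the same 4 arrays, their shared order of arrays is no separate result.

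**Figure D4:**
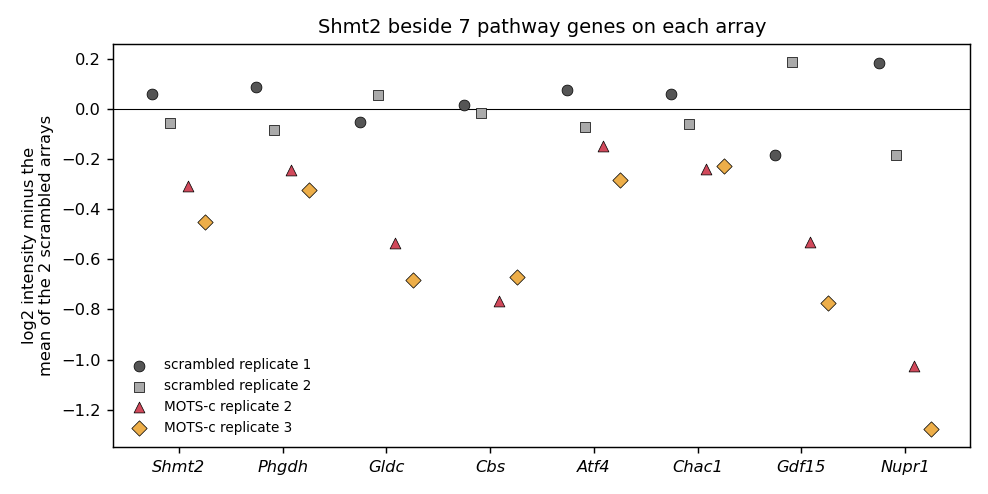
The y axis gives the log2 intensity on each array minus the mean of the 2 scrambled arrays for Shmt2, its nearest pathway genes Phgdh, Atf4 and Chac1, and the pathway genes with an unadjusted p under 0.05. Each gene is shown by its brightest probe. In these probes of all 8 genes both MOTS-c arrays lie below both scrambled arrays, by the widest margin in Nupr1. The genes were picked for their differences or for likeness to Shmt2 on these arrays, so this order is no separate result. Of all genes, 22.7% were lower without overlap.

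Promoter sequences of the members and of the list genes are described here. Whether they bear on the differences above was not tested. The ATF4 response genes were chosen as genes of that response, so finding the element in them is no result of these data. The element TGATGNAAN, bound by ATF4 with a CEBP partner, was searched on both strands from 250 bases before to 50 bases after the gene start in RefSeq promoters of mouse build GRCm38.p6. It was found in 3.95% of 32851 promoters and in 6 of the 12 ATF4 response genes with a promoter in the table. In the members it was found in 0 of 7 (Aldh1l2 was not in the table). In 4 of the ATF4 response genes it reads as follows, in windows of 29 bases with the element in capitals, in the direction of transcription, so that an element on the other strand reads as its reverse complement.
Asns (chr6:7693214-7693242, minus strand): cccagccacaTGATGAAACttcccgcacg
Chac1 (chr2:119351038-119351066, plus strand): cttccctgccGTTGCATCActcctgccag
Fgf21 (chr7:45615612-45615640, minus strand): agacccccccATTGCATCAtccgtccagg
Nupr1 (chr7:126625563-126625591, minus strand): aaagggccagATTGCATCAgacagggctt

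Nupr1, with the lowest difference, and Asns, with nearly none, both carry the element, 111 and 23 bases before the start. The 250 bases before the start of Shmt2, the member with the lowest difference, and of Mthfd2, its neighbor in the mitochondrial arm, hold no match and are shown in lower case for comparison.
Shmt2 (chr10:127522445-127522694, minus strand): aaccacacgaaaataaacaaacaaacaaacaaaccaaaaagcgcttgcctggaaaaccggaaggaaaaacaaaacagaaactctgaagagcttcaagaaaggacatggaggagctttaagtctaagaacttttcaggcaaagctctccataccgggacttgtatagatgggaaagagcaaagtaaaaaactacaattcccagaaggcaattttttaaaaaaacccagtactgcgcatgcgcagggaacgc
Mthfd2 (chr6:83317605-83317854, minus strand): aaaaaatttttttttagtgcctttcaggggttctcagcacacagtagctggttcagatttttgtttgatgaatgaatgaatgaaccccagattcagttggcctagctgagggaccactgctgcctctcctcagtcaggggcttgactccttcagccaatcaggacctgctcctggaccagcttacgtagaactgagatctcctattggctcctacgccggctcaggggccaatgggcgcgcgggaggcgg

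The Shmt2 stretch is the poorest in G and C of the 7 members, with 40.8% against 52.0% to 62.0% in the others. The element was not in these windows, and nothing was measured about binding elsewhere. The element TTTCGCGC or TTTGGCGC, bound by E2F factors in genes of DNA replication, was found on either strand in 0.813% of promoters, in 5 of 13 DNA replication genes and in 0 of the 7 members, Tyms among them.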

How the data were processed

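Total RNA of dispersed mouse islet cells was measured on 4 one-color Agilent arrays, all on 1 slide, 2 per group, grouped by the treatment label. The authors amplified and Cy3-labeled the RNA and extracted spots with Feature Extraction (11.0.1.1 in the file headers). Per the file headers, the deposited intensity is the processed signal, corrected for background but without any normalization across the arrays. Their table of rounded intensity values was used as an alternative. Here, after removal of 3671 control spots and of outlier spots, log2 intensities were averaged by probe, probes that stood well above background on 2 or more of the 4 arrays were retained, and the arrays were quantile normalized. No gene spot was saturated. limma 3.58.1 (R 4.3.3) compared MOTS-c with scrambled over 35087 probes with Benjamini-Hochberg adjustment. The fit had 2 residual and 2.64 prior degrees of freedom, the prior taken from the variances of all probes. Each limma SE, interval and p-value thus draws on other probes too, and the number of arrays limits the precision. Symbols came from RefSeq accessions for 32994 of 56605 probes. Probes without a matched accession were not named.

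The text names all 8 enzymes, every list gene at an unadjusted p under 0.05, the highest and lowest gene of each list and the 3 nearest to Shmt2. Dld, Asns, Slc7a11, Fgf21, Slc2a2 and H2ac12 were named after their values were seen. The members, lists and alternatives were chosen with earlier results of these data known. The alternatives were a 75th percentile shift, normexp with an offset of 50 (on median signals, since the files hold no mean signal), the rounded values, no filter, a filter on all 4 arrays, a trend, the methods' t-test, the mean over a gene's probes and leaving out each array. The fit was tested on simulated data with changes larger than any member difference, and the no-overlap count on made-up values. Smaller changes and the promoter search were not covered. The study's other experiments were not analysed here.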

Additional observations from a re-analysis of the deposited data

How the results depend on the processing

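No paired analysis was possible because the groups share only 1 replicate number, and with all arrays on 1 slide none could serve as a block. The count of all probes at an adjusted p under 0.05 was 0 in the chosen processing and 1 with the methods' t-test (a probe of H2ac12), and 0 for the members in every alternative. Shmt2 stayed negative in all 12 alternatives, from −0.45 to −0.29, with an unadjusted p under 0.05 in 6 of them. The members' count at an unadjusted p under 0.05, 1 by brightest probe, was 0 with the mean over probes, 0 with the t-test, 0 without any 1 of the 4 arrays (range 0 to 0) and 2 with normexp (Shmt2 and Mthfd1), while the dimmer Shmt2 probe had an unadjusted p of 0.0478 without MOTS-c replicate 2. Their count without overlap, 2 by brightest probe, was 4 with the 75th percentile shift and 1 with the mean over probes. The pathway count of 4 at an unadjusted p under 0.05 was 11 with the trend, 7 without the filter and 4 to 7 when an array was left out (7 without MOTS-c replicate 2). Over all probes that count was 2755, 4633 without the filter and 1596 to 4576 when an array was left out. Probes without overlap numbered 13329, and 21525 without the filter. The median of the members lay between −0.14 and 0.015, and that of the ATF4 response genes between −0.23 and −0.15. The sign of single probes turned, at values that passed no test, for Tyms with the 75th percentile shift (−0.059). When an array was left out, it turned for the brighter Tyms probe (−0.079 to 0.084), both Mtr probes (−0.20 to 0.24 and −0.20 to 0.27), both Aldh1l2 probes (−0.034 to 0.28 and −0.15 to 0.31), the dimmer probes of Mthfd1 (−0.37 to 0.079), Shmt1 (−0.24 to 0.020) and Shmt2 (−0.52 to 0.11), and Mthfd1l (−0.35 to 0.080). Gldc, Cbs and Nupr1 kept sign and an unadjusted p under 0.05 in all 12 alternatives, and Gdf15 in 9. Why these values moved was not tested, beyond the fewer arrays or the other probes that an alternative uses.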
